A study of Mus musculus with 6 samples.

Results

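Autophagy is the route by which a cell wraps part of its cytoplasm in a double membrane and delivers it to the lysosome. A kinase complex around ULK1 starts the process, a lipid kinase complex around Beclin 1 marks the site, ATG9 and ATG2 supply membrane, and a conjugation system couples LC3 and GABARAP proteins to the growing membrane. Cargo receptors bind these proteins, and mitophagy is the case in which the cargo is a mitochondrion. In macrophages the pathway also takes part in the handling of microbes and in the control of inflammatory signals.

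Transcripts of this machinery were compared in RAW264.7, a line of mouse macrophages that originated in a tumour raised with a leukaemia virus. Gel/S cells, the control, were cultured statically for 3 d with GelMA, a methacryloyl-modified gelatin hydrogel. C/D cells were cultured for 3 d with GelMA combined with the conducting polymer blend PEDOT:PSS and with PLLA/PDA, a setting the labels call dynamic, with 5 min of 48 kHz ultrasound. There were 3 libraries per group. Material and ultrasound were changed at once and cannot be told apart, and the columns marked US were taken as C/D because the labels apply ultrasound to that group. That reading is not written out in the labels, and all directions below depend on it. The labels do not say that replicates are separate cultures, so p-values cover only the spread among these 6 libraries, possibly a technical one.

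Members were all protein-coding entries whose symbol is Atg followed by a digit (19 genes) and 22 listed genes, together 41 of 54532 gene entries in the table. Of these, 39 reached a mean of 1 FPKM (fragments per kilobase of gene length, scaled for library size) over the 6 libraries and were tested. Optn, a cargo receptor, lay between 0.167 and 0.396 FPKM and was not tested. The remaining entry, Atg4a-ps, is classed as protein-coding in the table but carries a pseudogene name, and it had 1 to 5 counts per library. Only transcript levels were measured, and in bulk RNA fewer cells expressing a gene and less RNA per cell cannot be told apart.

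Total counts ranged from 15579679 to 16525699 in Gel/S and from 12818831 to 15802627 in C/D. Of 10 macrophage markers, 9 reached 1 FPKM, with a summed level of 13540 to 14140 FPKM in Gel/S and 11020 to 11190 FPKM in C/D. No marker of fibroblasts, epithelia, lymphocytes or dendritic cells reached 1 FPKM, and 4 of 7 osteoclast markers did (summed 52.4 to 55.0 FPKM in Gel/S and 46.6 to 52.1 FPKM in C/D). Mitochondrial transcripts took 5.59 to 9.02% of counts in Gel/S and 9.17 to 10.4% in C/D, and Gel/S 1 lay farthest out on the first principal component (−34.6, against −17.7 and −11.3 for the other Gel/S libraries). Their part in the results below was not tested.

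Of the 39 tested genes, 4 rose and 6 fell in C/D, by the quasi-likelihood test of edgeR with p-values adjusted over all 11708 genes tested (Benjamini-Hochberg) and a threshold of 0.05. That is 25.6% of the members, next to 27.0% of all genes tested. By direction, 10.3% of the members were higher against 13.1% of all genes, and 15.4% were lower against 13.9%. The median log2 fold change of the members was 0.00 and that of all genes 0.01, and 19 of the 39 had a negative value. On a rescaling to TPM (limma), 0 members rose and 6 fell, and all genes gave 633 rises and 1510 falls in place of 1532 and 1631. The calls split several pairs of related genes, which were not set beforehand, while both ATG9 genes fell. Ulk1 rose while Ulk2 fell, Map1lc3b rose while Gabarap fell, and Tfe3 fell with no call for Tfeb. Ulk2, Map1lc3b and Atg9a were not called with limma on FPKM or TPM, and Ulk1 was not called on TPM. Whether the genes of a pair differ in their change was not tested. Among changed members the absolute log2 fold change ran from 0.27 to 0.59, which is a change of −33.6% to 47.6%.

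**Figure D1:**
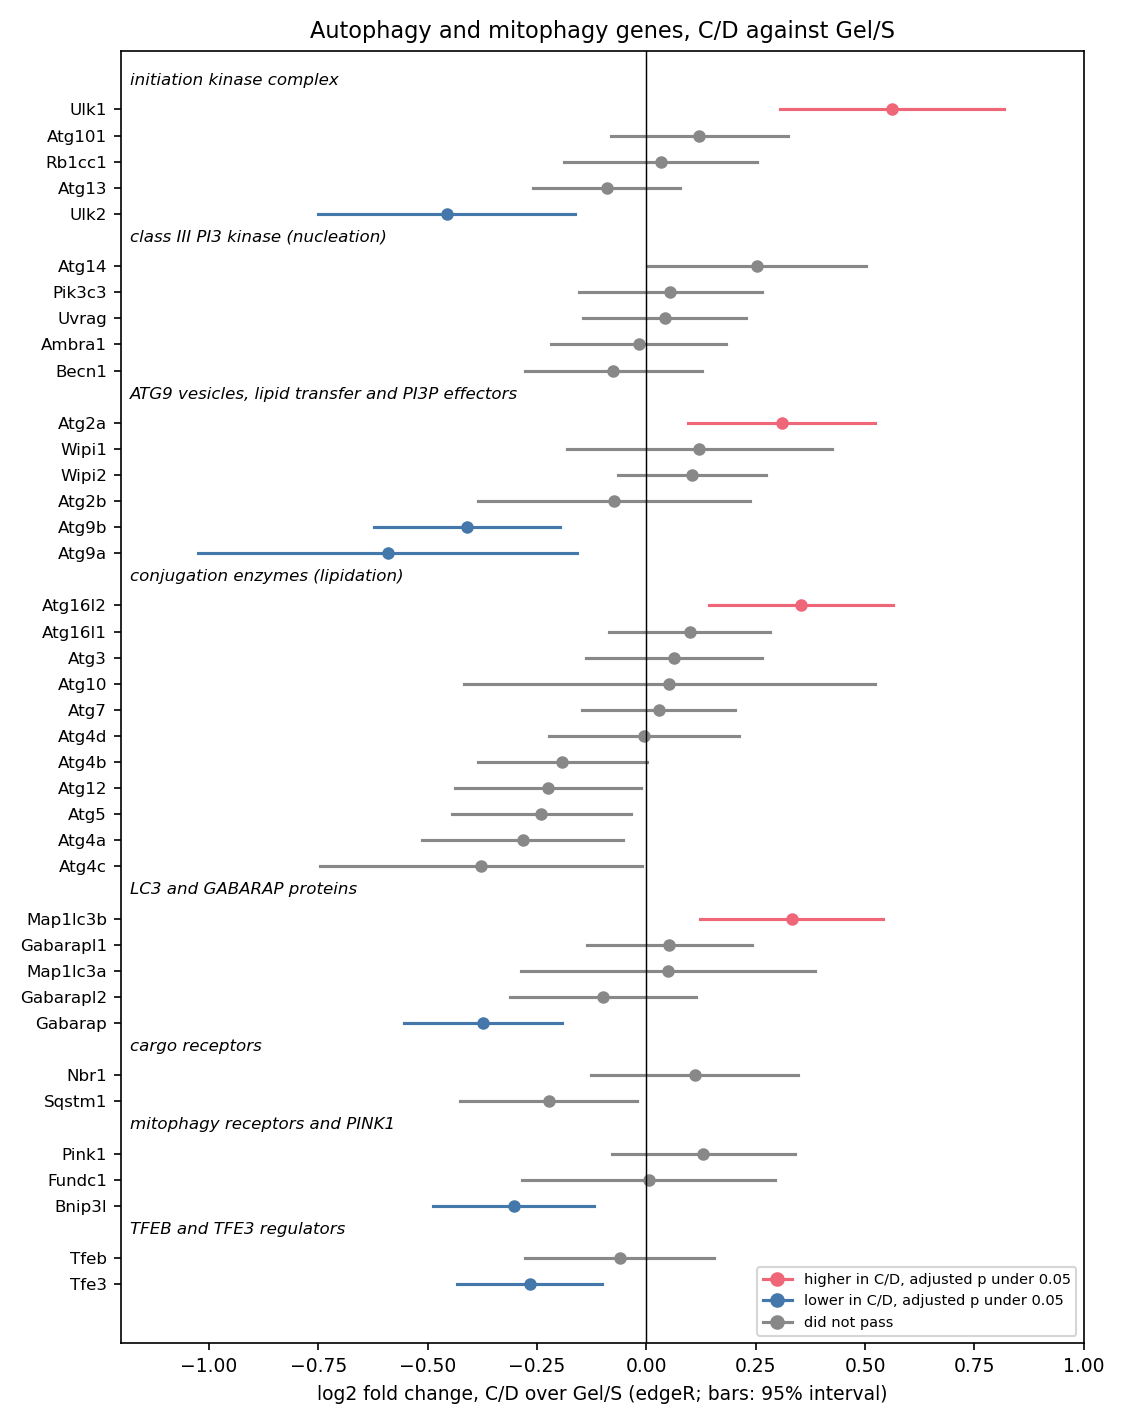
Log2 fold change of each of the 39 tested genes (x axis, C/D over Gel/S, with the 95% interval from edgeR), grouped by step of the pathway. The 4 genes that rose (Ulk1, Atg2a, Atg16l2, Map1lc3b) and the 6 that fell (Ulk2, Atg9a, Atg9b, Gabarap, Bnip3l, Tfe3) are spread over 6 of the 8 steps, and all lie between −0.59 and 0.56.

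Promoter stretches are shown for a pair of kinase genes that moved in opposite directions and for genes holding the letters read by TFEB and TFE3. The RefSeq promoter table (GRCm38.p6) matched 33 of the 41 members, and the 250 bases before the start site were searched on both strands. The CLEAR core TCACGTGA, the palindrome bound by TFEB and TFE3, was found in 1 of the 33 members (Atg3, 2.56% of the 39 member windows, against 0.785% of all 32851 windows). The E-box CACGTG, which lies inside the CLEAR core, was found in Atg3, Atg5 and Atg7 (7.69% of member windows against 6.02% of all). The FOXO motif GTAAACA was found in 0 of the member windows and in 3.17% of all. By edgeR, Atg3, Atg5 and Atg7 were not called and no called gene in the table held these letters in this window, while limma on FPKM called Atg5 lower (adjusted p = 0.0324). The GC box GGGCGG, bound by SP1-type factors and added to the search after the values were seen, was in 61.5% of member windows and 32.7% of all. All windows together were not matched to the members for expression or base composition. Their median GC content was 52.4%, and the stretches printed below have 56.4 to 72.8%. Whether base composition accounts for the GC box shares was not tested.

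The Atg3 stretch is the gap between Atg3 and its divergent neighbour Slc35a5 (chr16:45158707-45158784, plus strand), and the Atg5 stretch is chr10:44268089-44268338 (plus strand). Those of Ulk1 (chr5:110810098-110810331) and Ulk2 (chr11:61855093-61855342) are on the minus strand. All are in GRCm38, written 5′ to 3′, with bases inside annotated genes left out. Capitals mark the CLEAR core and E-boxes in the Atg genes and the GC box, here as its reverse complement CCGCCC, in the Ulk genes.
Atg3: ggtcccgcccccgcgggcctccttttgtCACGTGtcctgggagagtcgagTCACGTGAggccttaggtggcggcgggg
Atg5: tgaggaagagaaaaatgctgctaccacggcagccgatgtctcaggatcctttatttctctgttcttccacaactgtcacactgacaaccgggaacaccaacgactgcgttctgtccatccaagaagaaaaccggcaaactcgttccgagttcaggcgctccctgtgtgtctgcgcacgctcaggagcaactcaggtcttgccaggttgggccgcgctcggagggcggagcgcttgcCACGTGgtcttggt
Ulk1: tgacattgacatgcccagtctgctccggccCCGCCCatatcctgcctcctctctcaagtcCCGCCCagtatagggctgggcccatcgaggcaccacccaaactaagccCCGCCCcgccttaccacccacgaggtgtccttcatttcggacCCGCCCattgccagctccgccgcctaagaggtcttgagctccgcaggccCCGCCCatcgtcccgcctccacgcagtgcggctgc
Ulk2: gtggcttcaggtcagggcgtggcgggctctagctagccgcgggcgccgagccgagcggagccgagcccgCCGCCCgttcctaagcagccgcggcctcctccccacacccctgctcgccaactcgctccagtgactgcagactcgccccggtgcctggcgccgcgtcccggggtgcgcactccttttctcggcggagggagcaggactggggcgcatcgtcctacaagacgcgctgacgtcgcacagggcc
Ulk1 holds 5 GC boxes and Ulk2 holds 1, while Ulk2 has more CpG dinucleotides (31 in 250 bases, against 17 in 234). These are descriptions of the letters, not binding sites.

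In the initiation complex, Ulk1 rose and Ulk2 fell, and the other 3 genes did not pass. Ulk1 encodes the kinase that receives signals from mTORC1 and AMPK (chromosome 5, 110784488 to 110810097). Its level was 4.81, 4.38 and 4.73 FPKM in Gel/S 1 to 3 and 7.86, 6.21 and 5.90 FPKM in C/D 1 to 3. All C/D libraries lay above all Gel/S libraries, C/D 1 the highest. Ulk1 had a log2 fold change of 0.56 (SE of 0.118 and edgeR adjusted p = 0.00559), and the call held without each library in turn (highest adjusted p = 0.0253).

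Ulk2, the close paralog of Ulk1 (chromosome 11, 61775649 to 61855073), was at 5.99, 4.42 and 4.72 FPKM in Gel/S and at 3.02, 3.76 and 3.89 FPKM in C/D. The groups did not overlap, with Gel/S 1 the highest and C/D 1 the lowest. Ulk2 had a log2 fold change of −0.46 (SE of 0.135 and edgeR adjusted p = 0.0273). Its call held only when Gel/S 2 or C/D 3 was the library left out (adjusted p = 0.109 without C/D 1).

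A ratio of these kinases was formed after their values were seen and is given without a test. Ulk1 over Ulk2, on the FPKM scale, was 0.804, 0.990 and 1.00 in Gel/S 1 to 3 and 2.60, 1.65 and 1.52 in C/D 1 to 3. The 2 transcripts were thus near parity in the control, with Ulk1 ahead in each C/D library. Their summed level was 9.68 ± 1.02 FPKM in Gel/S and 10.2 ± 0.583 FPKM in C/D (mean ± SD, n = 3). The remaining subunits were Atg13, the adaptor that links the kinase to the scaffold (20.6 ± 0.628 and 18.8 ± 0.449 FPKM), Atg101, its binding partner (18.8 ± 0.625 and 19.8 ± 0.666 FPKM), and the scaffold Rb1cc1, also called FIP200 (3.00 ± 0.366 and 2.97 ± 0.0770 FPKM). Atg13 was lower in every C/D library than in any Gel/S library, but its edgeR adjusted p was 0.399.

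**Figure D2:**
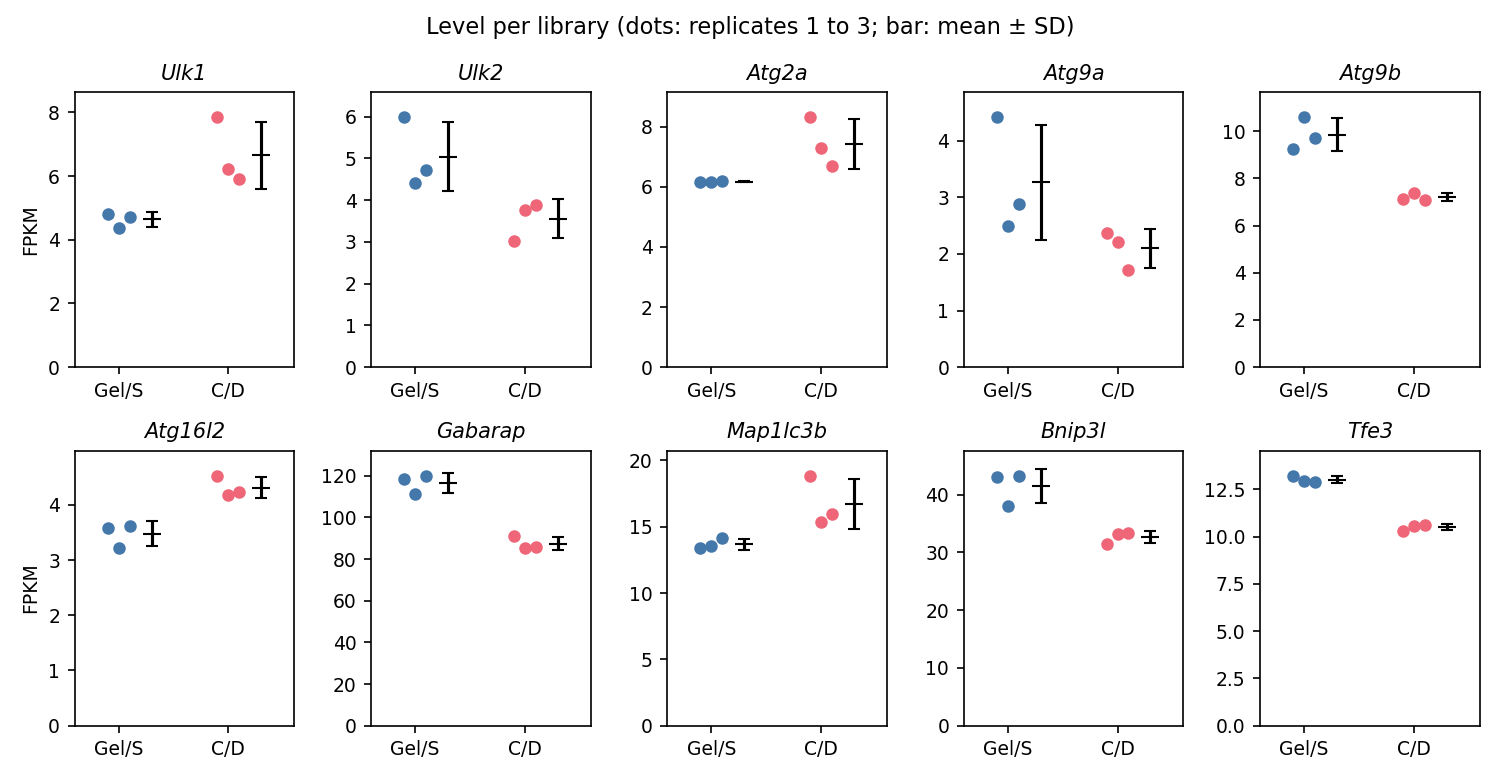
FPKM (y axis, linear from 0) of the 10 changed genes in each library, with Gel/S in blue, C/D in red, dots for replicates 1 to 3 from left to right and the bar for mean ± SD (n = 3). The groups are separate in all 10 panels, and Atg9a shows the smallest gap, 2.38 FPKM in C/D 1 against 2.50 FPKM in Gel/S 2.

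None of the 5 genes of the class III lipid kinase passed in edgeR (1 had an unadjusted p under 0.05), nor in DESeq2 or limma. This complex makes the lipid PI3P on the forming membrane. Atg14, the subunit that directs the kinase to autophagy, had the smallest p of the step, with 3.97, 3.66 and 3.48 FPKM in Gel/S and 4.45, 3.94 and 4.46 FPKM in C/D. The ranges touch, since C/D 2 lies below Gel/S 1, and the log2 fold change was 0.25 (95% interval 0.00 to 0.50, edgeR adjusted p = 0.1195).

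Becn1, which encodes Beclin 1, was at 8.74 ± 0.498 FPKM in Gel/S and 8.04 ± 0.775 FPKM in C/D (log2 fold change −0.08, 95% interval −0.28 to 0.13, edgeR adjusted p = 0.570). The catalytic subunit Pik3c3 was at 9.74 ± 0.297 and 9.83 ± 0.972 FPKM. Uvrag, an alternative subunit that acts at later endosomal steps, was at 7.57 ± 0.618 and 7.57 ± 0.228 FPKM, and Ambra1, a Beclin 1 partner, at 8.75 ± 0.847 and 8.38 ± 0.253 FPKM. The ranges of these 4 genes overlapped between the groups.

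Among 6 genes of membrane supply, both ATG9 genes fell and Atg2a rose. ATG9 is the membrane-spanning lipid scramblase carried by vesicles to the forming autophagosome. Atg9b (chromosome 5, 24384181 to 24392143) was at 9.25, 10.6 and 9.70 FPKM in Gel/S and at 7.13, 7.39 and 7.08 FPKM in C/D. Its C/D libraries lay close together and well below Gel/S, with a log2 fold change of −0.41 (SE of 0.0971 and edgeR adjusted p = 0.0101), and the call held without each library in turn (highest adjusted p = 0.0453). Atg9b overlaps Nos3 on the opposite strand, which was at 0.406 and 0.460 FPKM.

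Atg9a (chromosome 1, 75180860 to 75192196), the paralog usually described as widely expressed, was at 4.42, 2.50 and 2.88 FPKM in Gel/S and at 2.38, 2.21 and 1.72 FPKM in C/D. Here the less described Atg9b was the more abundant of the pair in every library. Atg9a had a log2 fold change of −0.59 (SE of 0.199 and edgeR adjusted p = 0.0450), a value carried largely by Gel/S 1: without it the log2 fold change was −0.32 (adjusted p = 0.137). Leaving out Gel/S 3 or any C/D library also ended the call (adjusted p up to 0.161). Ankzf1, on the opposite strand, overlaps Atg9a and was at 6.85 FPKM in Gel/S and 7.55 FPKM in C/D, and reads of the overlap cannot be assigned by strand here.

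Atg2a encodes a lipid transfer protein that feeds the membrane (chromosome 19, 6241668 to 6262335). It was at 6.16, 6.17 and 6.20 FPKM in Gel/S and at 8.33, 7.29 and 6.69 FPKM in C/D. The control libraries were nearly identical and all C/D libraries were higher, with a log2 fold change of 0.31 (SE of 0.0979 and edgeR adjusted p = 0.0359). Leaving out Gel/S 3, C/D 1 or C/D 2 ended the call (adjusted p up to 0.137), and the authors' deposited table gives an adjusted p of 0.0824. Its paralog Atg2b was at 3.37 ± 0.738 and 3.10 ± 0.358 FPKM. The PI3P readers Wipi1 (3.36 ± 0.370 and 3.55 ± 0.522 FPKM) and Wipi2 (7.39 ± 0.212 and 7.72 ± 0.184 FPKM) did not pass.

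Of 11 conjugation genes, Atg16l2 rose and 10 did not pass. None fell by edgeR, where 4 lower genes had an unadjusted p under 0.05, or by DESeq2, while limma on FPKM called Atg4a and Atg5 lower and not Atg16l2. Atg16l2 is the paralog of the scaffold gene Atg16l1 (chromosome 7, 101263034 to 101302251). It was at 3.58, 3.21 and 3.62 FPKM in Gel/S and at 4.53, 4.17 and 4.23 FPKM in C/D. All C/D libraries were above all Gel/S libraries, with a log2 fold change of 0.35 (SE of 0.0961 and edgeR adjusted p = 0.0191). Leaving out Gel/S 3 or any C/D library ended the call (adjusted p up to 0.0719), and the adjusted p in the authors' deposited table is 0.0528. Fchsd2 overlaps Atg16l2 on the opposite strand and was at 1.305 FPKM in Gel/S and 1.259 FPKM in C/D. Atg16l1, which places the conjugation site on the membrane, was at 6.62 ± 0.103 and 6.89 ± 0.448 FPKM.

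Several conjugation genes lay lower in C/D without passing, although of the 11 genes 6 had a negative and 5 a positive log2 fold change (median −0.01). Atg5, which is joined to ATG12, was at 14.2, 13.8 and 14.9 FPKM in Gel/S and 11.3, 12.1 and 11.8 FPKM in C/D (log2 fold change −0.24, edgeR adjusted p = 0.0752). Its partner Atg12 was at 18.1, 14.9 and 17.2 FPKM in Gel/S and 13.8, 14.3 and 13.5 FPKM in C/D (log2 fold change −0.22, edgeR adjusted p = 0.103). For both partners every C/D library was below every Gel/S library. Of the 11 genes, 4 were lower and 1 was higher without overlap, next to 27.1% and 19.1% of all genes tested.

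ATG4 proteases trim LC3 and GABARAP proteins so that they can be lipidated, and also release them again. Atg4a had the smallest adjusted p of the members that were not called, at 9.17, 10.1 and 9.21 FPKM in Gel/S and 7.40, 7.31 and 8.02 FPKM in C/D (log2 fold change −0.28, edgeR adjusted p = 0.0649). Atg4b was at 5.39 ± 0.156 and 4.58 ± 0.235 FPKM (log2 fold change −0.19, edgeR adjusted p = 0.123). Their groups did not overlap, whereas those of Atg4c did (6.37, 3.72 and 5.09 against 3.72, 3.75 and 3.85 FPKM, log2 fold change −0.38, edgeR adjusted p = 0.113). The Atg4c value rests on which control is used: its log2 fold change was −0.19 without Gel/S 1 and −0.55 (adjusted p = 0.00749) without Gel/S 2. Atg4d was at 3.95 ± 0.0959 and 3.82 ± 0.297 FPKM.

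The activating enzyme Atg7 (9.97 ± 0.396 and 9.87 ± 0.244 FPKM) and the transfer enzymes Atg3 (18.7 ± 1.49 and 19.0 ± 0.704 FPKM) and Atg10 (2.92 ± 0.669 and 2.95 ± 0.426 FPKM) did not pass, and their ranges overlapped. Atg10 had the fewest counts of any tested member, 62 in its lowest library.

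The LC3 and GABARAP genes encode the small ubiquitin-like proteins that are coupled to the membrane. Of the 5, Gabarap fell, Map1lc3b rose and 3 did not pass. Gabarap (chromosome 11, 69991143 to 69994951) was the most abundant member of all, at 119, 111 and 120 FPKM in Gel/S and at 90.9, 85.6 and 85.8 FPKM in C/D. The groups were far apart for the spread within them, with a log2 fold change of −0.37 (SE of 0.0826 and edgeR adjusted p = 0.00741). The call held without each library in turn (highest adjusted p = 0.0468).

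Map1lc3b encodes LC3B, the usual marker protein of autophagosomes (chromosome 8, 121590361 to 121598760). It was at 13.4, 13.5 and 14.1 FPKM in Gel/S and at 18.9, 15.4 and 16.0 FPKM in C/D. C/D 1 was the highest and no C/D library reached down to Gel/S, with a log2 fold change of 0.33 (SE of 0.0956 and edgeR adjusted p = 0.0246). It was not called once Gel/S 3, C/D 1 or C/D 3 was left out (adjusted p up to 0.0971). Zcchc14 overlaps it on the opposite strand and was at 4.77 and 5.01 FPKM.

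Gabarapl1 was at 46.7 ± 2.51 and 47.0 ± 2.78 FPKM (log2 fold change 0.05, edgeR adjusted p = 0.679), Gabarapl2 at 18.4 ± 0.882 and 16.6 ± 1.35 FPKM (−0.10, adjusted p = 0.465) and Map1lc3a at 8.93 ± 1.51 and 8.98 ± 0.287 FPKM (0.05, adjusted p = 0.834). The summed level of the 5 genes was 204 ± 6.42 FPKM in Gel/S and 177 ± 7.05 FPKM in C/D. As a share of that sum, Gabarap took 59.0, 55.6 and 56.8% in Gel/S and 49.2, 49.9 and 49.3% in C/D. Map1lc3b took 6.64, 6.77 and 6.68% in Gel/S and 10.2, 8.96 and 9.18% in C/D. Gabarapl1, whose level was not called, took 22.1, 23.1 and 23.3% in Gel/S and 26.6, 25.5 and 27.6% in C/D. The make-up of the family thus differed between the groups without overlap for these genes, while Gabarap stayed the largest part in all 6 libraries. Shares of a sum are not independent, so a lower level of Gabarap by itself raises the shares of the others. The gene length by which FPKM divides was 7517 nt for Map1lc3b and 1181 to 2325 nt for the others, so the place of Map1lc3b depends on that length. As shares of counts, which also reflect gene length, Map1lc3b took 22.1% and 29.1% (means of Gel/S and C/D), second to Gabarap at 46.2% and 37.4%. These shares are descriptions and were not tested.

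**Figure D3:**
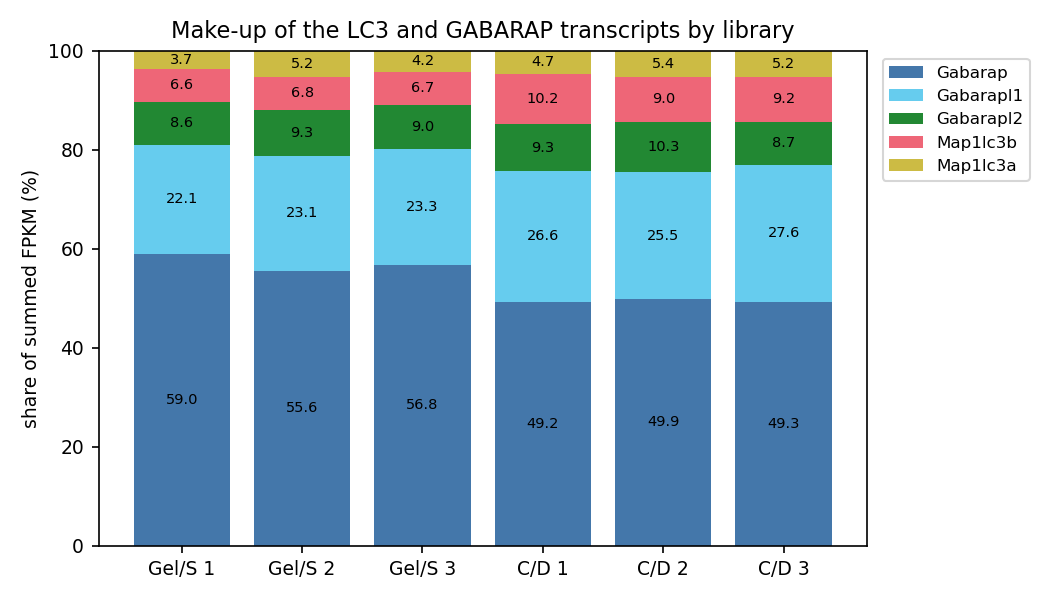
Share of each gene in the summed FPKM of the 5 LC3 and GABARAP genes (y axis, percent), with 1 bar per library. Gabarap takes 55.6 to 59.0% in Gel/S and 49.2 to 49.9% in C/D, and Map1lc3b 6.64 to 6.77% and 8.96 to 10.2%. FPKM is per length, and shares of counts differ.

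Neither tested cargo receptor passed in edgeR, where 1 (Sqstm1) had an unadjusted p under 0.05, nor in DESeq2 or limma. Sqstm1 encodes p62, which binds ubiquitinated cargo and LC3 and is itself degraded by autophagy (chromosome 11, 50199366 to 50210827). It was at 97.0, 80.9 and 85.8 FPKM in Gel/S and at 75.2, 68.9 and 75.0 FPKM in C/D. Every C/D library lay below every Gel/S library, with a log2 fold change of −0.22 (95% interval −0.42 to −0.02, edgeR adjusted p = 0.0921). The authors' deposited table lists Sqstm1 with an adjusted p of 0.0327. Nbr1, a receptor related to p62, was at 14.7 ± 2.53 and 15.4 ± 0.147 FPKM (log2 fold change 0.11, edgeR adjusted p = 0.466).

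Among the mitophagy genes, Bnip3l fell and the other 2 did not pass. Bnip3l encodes NIX, a receptor of the outer mitochondrial membrane that binds LC3 proteins directly (chromosome 14, 66985239 to 67008877). It was at 43.1, 38.0 and 43.3 FPKM in Gel/S and at 31.4, 33.1 and 33.3 FPKM in C/D. The groups did not overlap, with a log2 fold change of −0.30 (SE of 0.0844 and edgeR adjusted p = 0.0213). It was not called once Gel/S 3 or any C/D library was left out (adjusted p up to 0.101). The copy Bnip3l-ps has its own entry at 9.91 ± 1.81 and 8.0 ± 0.834 FPKM and could share reads with Bnip3l.

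Pink1 encodes the kinase that accumulates on damaged mitochondria and marks them for removal. It was at 15.0 ± 1.08 and 15.9 ± 1.12 FPKM (log2 fold change 0.13, 95% interval −0.08 to 0.34, edgeR adjusted p = 0.326). Fundc1, another receptor of the outer membrane, was at 15.2 ± 2.68 and 14.8 ± 1.62 FPKM (95% interval −0.28 to 0.29 on the log2 scale, edgeR adjusted p = 0.982).

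TFEB and TFE3 are related transcription factors that enter the nucleus when mTORC1 is inactive and switch on lysosomal and autophagy genes. Tfe3 (chromosome X, 7762560 to 7775202) was at 13.2, 12.9 and 12.9 FPKM in Gel/S and at 10.3, 10.6 and 10.6 FPKM in C/D. The replicates lay close together and the groups were apart, with a log2 fold change of −0.27 (SE of 0.0757 and edgeR adjusted p = 0.0229). The size held between −0.28 and −0.26 without each library in turn, although without Gel/S 3 or any C/D library the gene was not called (adjusted p up to 0.0876). Tfeb was at 4.85, 5.04 and 5.39 FPKM in Gel/S and at 4.71, 4.90 and 4.61 FPKM in C/D. Its ranges overlapped, and the log2 fold change was −0.06 (95% interval −0.28 to 0.15, edgeR adjusted p = 0.669). Whether the changes of Tfe3 and Tfeb differ from each other was not tested.

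**Figure D4:**
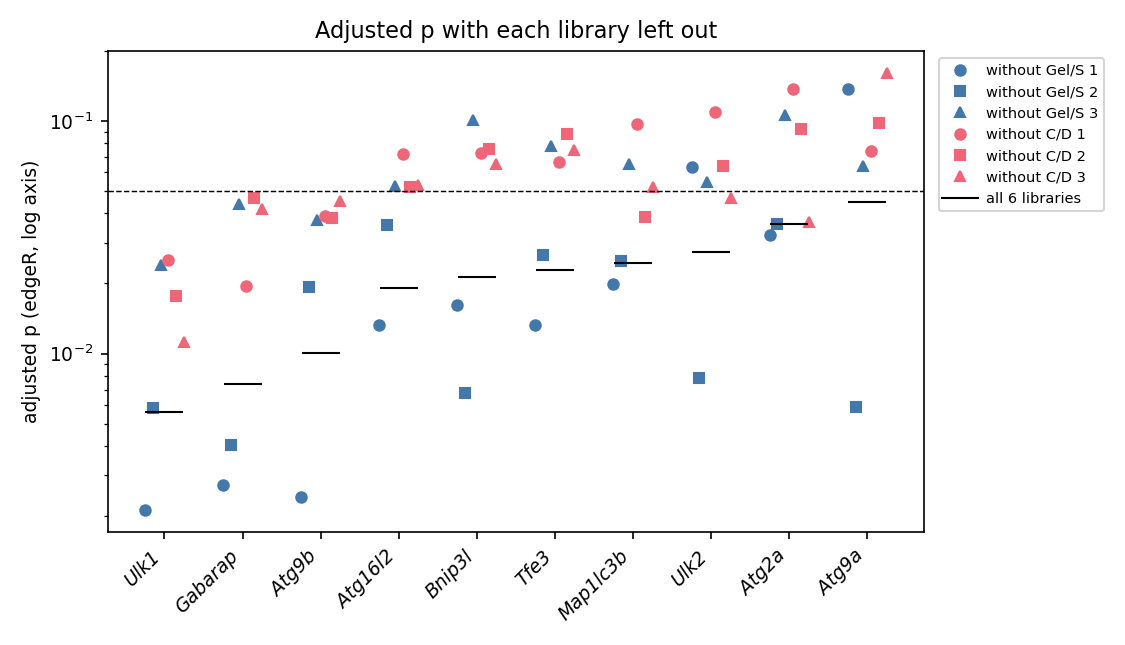
Adjusted p (y axis, log scale, edgeR) of the 10 changed genes with all 6 libraries (black bars) and with each library left out (symbols). Ulk1, Gabarap and Atg9b stay under the dashed line at 0.05 in all 6 refits, and the other 7 genes cross it in at least 1.

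Across all steps, the FPKM ranges of the groups did not overlap for 16 of the 39 genes (41.0%, against 46.2% of all genes tested), 4 higher and 12 lower in C/D. By direction that is 10.3% higher against 19.1% of all genes, and 30.8% lower against 27.1%. Of these 16, 6 were not called, namely Atg13, Atg12, Atg4a, Atg4b, Atg5 and Sqstm1, and all 6 lay lower in C/D. Among all genes tested, non-overlap leaned the same way, with 3172 lower and 2239 higher, while 1631 were called lower and 1532 higher. For the 29 members that were not called, the 95% intervals of the log2 fold change reached from −0.75 to 0.52 at the widest. Of the 10 called genes, 8 also have an adjusted p under 0.05 in the authors' deposited table, the exceptions being Atg2a and Atg16l2. With limma on log2(FPKM + 1), Ulk1, Gabarap, Atg9b, Bnip3l and Tfe3 stayed called, while Ulk2, Atg9a, Atg2a, Atg16l2 and Map1lc3b did not. Atg4a and Atg5 came in as lower, so the split was 1 higher and 6 lower. Among all genes that fit gave 1020 higher and 1471 lower. Without Gel/S 2 the edgeR counts were 4 higher and 9 lower, with Atg12, Atg4c and Sqstm1 added (all genes: 1989 and 2089). Without Gel/S 3 or any C/D library the members gave 1 to 2 higher and 2 to 3 lower. In these fits all genes gave 887 to 954 higher and 876 to 1006 lower.

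The wider pathway was followed in 83 further genes in 6 lists, of which 77 were tested. There 11 rose and 11 fell in C/D, 28.6% of those tested next to 27.0% of all genes, with a median log2 fold change of 0.02. By direction, 14.3% rose and 14.3% fell, against 13.1% and 13.9% of all genes. Among 12 other core genes, 2 rose and 1 fell (25.0% called, against 27.0% of all genes). Wdr45, which encodes a further PI3P reader of the WIPI family, rose from 3.62 ± 0.406 to 5.53 ± 0.488 FPKM (log2 fold change 0.65, edgeR adjusted p = 0.00499). Vmp1, which encodes a lipid scramblase of the endoplasmic reticulum, rose by 0.44 on the log2 scale, and Tmem41b, which encodes its partner in the same membrane, fell from 6.95 ± 0.654 to 4.71 ± 0.284 FPKM (−0.52, edgeR adjusted p = 0.00389). Vmp1 was not called once C/D 2 or C/D 3 was left out (adjusted p up to 0.0797).

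Of 15 tested genes for other receptors and mitophagy factors, 1 rose (6.67%, against 13.1% of all genes) and 5 fell (33.3%, against 13.9%). On TPM (limma), 0 of the 15 rose and 2 of the 15 fell, while all 11708 genes gave 633 rises and 1510 falls. Bnip3, the paralog of Bnip3l and also a mitophagy receptor, fell from 117 ± 12.7 to 68.4 ± 6.09 FPKM (log2 fold change −0.73, edgeR adjusted p = 0.000778), so both NIX-family receptor genes were lower in C/D. Vcp, the segregase that extracts ubiquitinated proteins, fell by 0.45 on the log2 scale, Ncoa4, the receptor for ferritin, by 0.53 and the mitochondrial phosphatase Pgam5 by 0.59. Ncoa4 and Pgam5 were not called once any C/D library was left out, nor was Pgam5 without Gel/S 1 (adjusted p up to 0.0880). Without Gel/S 1 the log2 fold change of Ncoa4 was −0.31 in place of −0.53.

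The fusion list, with 12 genes that join autophagosomes to lysosomes, gave 1 rise and 2 falls, so 25.0% were called, against 27.0% of all genes. Stx17 and Snap29 encode SNARE proteins that pair in the same fusion complex. Stx17 rose from 7.40 ± 0.422 to 9.60 ± 0.366 FPKM (log2 fold change 0.42, edgeR adjusted p = 0.00529), and Snap29 fell from 18.4 ± 1.76 to 13.5 ± 0.343 FPKM (−0.40, edgeR adjusted p = 0.00794). Vps33a, of the tethering complex HOPS, fell by 0.40 on the log2 scale and was not called once Gel/S 3 or C/D 2 was left out (adjusted p up to 0.0691).

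Of 24 tested genes of mTORC1, the kinase complex that holds autophagy back in fed cells, and its lysosomal inputs, 5 rose (20.8%, against 13.1% of all genes) and 2 fell (8.33%, against 13.9%). On TPM (limma), 2 of the 24 rose and 2 of the 24 fell, while all 11708 genes gave 633 rises and 1510 falls. Deptor, an inhibitor of mTOR, rose from 3.01 ± 0.336 to 4.80 ± 0.542 FPKM (log2 fold change 0.72, edgeR adjusted p = 0.00161). Of 5 Ragulator scaffold subunits, 1 rose, 1 fell and 3 (Lamtor3, Lamtor4 and Lamtor5) were not called. Lamtor2 rose from 114 ± 15.8 to 169 ± 11.5 FPKM (0.61, edgeR adjusted p = 0.00314) and Lamtor1, which anchors the scaffold to the lysosome, fell from 29.7 ± 0.748 to 22.5 ± 0.177 FPKM (−0.36, edgeR adjusted p = 0.00677). Flcn, which encodes folliculin, a regulator of the Rag GTPases, rose by 0.35 on the log2 scale and was not called without C/D 1 (adjusted p = 0.0757).

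Among 6 tested AMPK genes, Prkab2, a regulatory subunit, rose (log2 fold change 0.31, edgeR adjusted p = 0.0293). None fell by edgeR, DESeq2 or limma, and 1 lower gene had an unadjusted p under 0.05 in edgeR. Of 8 tested transcriptional regulators, Hif1a fell from 15.1 ± 2.36 to 9.43 ± 1.22 FPKM (−0.63, edgeR adjusted p = 0.00403) and Foxo4 rose by 0.36 on the log2 scale. The share called was 16.7% of the AMPK genes and 25.0% of the regulators, against 27.0% of all genes. Of the 6 libraries, only Gel/S 1 could be left out with Prkab2 and Foxo4 still called (adjusted p otherwise up to 0.139, for Foxo4). Further genes of the wider lists called by edgeR were Calcoco1 (log2 fold change 0.36), Ddit4 (0.43), Mlst8 (0.54), Tollip (−0.30) and Rragc (−0.31). Of the genes that edgeR called in these lists, Vmp1, Calcoco1, Ncoa4, Ddit4, Prkab2 and Foxo4 were not called with limma on FPKM. On TPM, Pgam5, Tollip, Stx17, Flcn and Mlst8 were not called either.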

How the data were processed

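RNA was sequenced from 6 libraries of RAW264.7 cells with a SMARTER mRNA kit, per the labels' protocols. Raw counts per gene were made by the authors, without normalization, per the file headers. The deposited FPKM values are counts per kilobase of gene length and per scaled library total. Group means of scaled counts are signal columns of the authors' table and were not used. The authors' log2 fold changes are Gel/S over C/D, and their p-values and adjusted p-values come from an unnamed test. The submitters' processing notes name the build GRCm38 (mm10). Strand setting, aligner and counter: not given in the sources used here. Thus overlapping genes and copies may share reads.

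Symbols turned into dates (27) were restored from gene IDs, and the 100 symbols with several entries were summed. No entry lacked a gene. Genes with a mean of at least 1 FPKM (11708) were tested with edgeR 4.0.16 (R 4.3.3), quasi-likelihood test, TMM factors, Benjamini-Hochberg, threshold 0.05. Standard errors were taken as |log2 fold change| / √F. Alternatives used limma 3.58.1 and DESeq2 1.42.0. The code of the fit was run on simulated counts with set changes and a fixed spread, which does not bear on the calls of single genes here. The coordinates of 40 of the 41 members equal those in GENCODE M21. Members and lists were chosen with earlier results of these data known. Genes given in full were the called members and the member with the smallest p in each other step, and, of the wider lists, up to 4 called genes with the smallest adjusted p. Others were added after their values were seen. The planned protein sequences are not shown here.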

Additional observations from a re-analysis of the deposited data

How the results depend on the processing

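The 10 called members kept their direction in all 147 refits (87 under other settings, 60 with a library left out) and stayed under the threshold in 99. Under other settings, Gabarap, Atg9b and Bnip3l kept their calls, Tfe3 lost its call with the replicate block alone (adjusted p = 0.0520) and Ulk1 on TPM alone (0.0834). Among all genes, limma gave 1020 higher on log2(FPKM + 1), 1008 on log2(FPKM + 0.1) and 633 on log2(TPM + 1), against 1532 with edgeR. Among members, the number higher was 1, 1 and 0 in these 3 fits and 2 without a filter on low values, against 4. Among the wider lists it was 6, 6 and 3, against 11, and 18 were lower without a filter, against 11. TPM shifts the median of all genes to −0.12, against 0.01 in the fit reported. There Gabarapl1 (−0.0807), Map1lc3a (−0.0672), Nbr1 (−0.0107), Pink1 (−0.0032) and Fundc1 (−0.12) lay below 0, and the cause was not tested. Fundc1 was also below 0 with limma at either pseudocount (−0.0269 and −0.0279) and without a filter (−0.0433). None of these was called in any setting.

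With each library left out, the counts ran from 887 to 1989 higher and 876 to 2089 lower for all genes, from 1 to 4 higher and 2 to 9 lower for members, and from 6 to 13 higher and 7 to 16 lower for the wider lists. Log2 fold changes that changed sign ran from −0.0751 to 0.18 for Map1lc3a, from −0.0037 to 0.23 for Nbr1 and from −0.13 to 0.0897 for Fundc1. The Ulk1 to Ulk2 ratio, C/D over Gel/S, ran from 1.70 to 2.28 around 2.06, and this alternative was chosen after seeing the data.

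As shares of counts, which are not per length, Gabarap was 46.2 and 37.4%, Map1lc3b 22.1 and 29.1%, Gabarapl1 20.2 and 22.0% and Map1lc3a 2.27 and 2.47% in Gel/S and C/D. Replicate numbers are shared by the groups, but deviations of same-numbered libraries correlated at −0.0568, −0.0589 and 0.0454. With the number as a block, 1242 genes were higher and 1302 lower, with 3 and 4 among members and 9 and 10 in the wider lists, and Atg2a, Ulk2 and Tfe3 lost their calls. Among tested members, counts per library ran from 62 (Atg10) to 5200.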
